A study of Mus musculus with 6 samples.

Results

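The import, folding and proteolysis machinery of mitochondria was described here through 49 mouse genes, chosen by symbol from 17710 genes listed in any of 6 deposited expression tables. The choice took 15 Timm genes and 10 Tomm genes, the inner and outer membrane translocase subunits whose symbol goes on with a digit, and 24 genes given by name. The named genes were sorting and assembly, motor, peptidase, chaperone and protease genes, and the rule used symbols only. Of the 49 genes, 47 were listed in all 6 tables. Timm8a2 was listed in the 3 ES tables only, and Tomm20l had a single count, in ES library B, and was not tested.

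Nearly all mitochondrial proteins are made in the cytosol and imported. The TOM complex of the outer membrane receives the precursors, the TIM22 and TIM23 complexes of the inner membrane insert them or pass them on, and a motor built on the matrix Hsp70 draws presequence proteins into the matrix. Peptidases then remove the targeting signal, chaperonins fold the protein, and ATP-dependent proteases degrade proteins that are damaged or left without partners.

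RNA of cultured mouse cell lines had been sequenced on the BGISEQ-500 platform in 3 libraries of embryonic stem (ES) cells and 3 libraries of extraembryonic endoderm (XEN) cells, both grown without feeder cells. ES cells stand for the pluripotent epiblast, and XEN cells for the primitive endoderm lineage that lines the yolk sac. The ES cells were of strain 129/Ola, were kept on gelatin and had the treatment label N2B27-2iLIF, a serum-free medium with inhibitors and LIF. The strain of the XEN cells was ICR and their treatment label RPMI1640+15%FBS+Glut+BME, a medium with serum, so that cell type, strain and medium cannot be told apart in any difference below. The libraries of each group are called A, B and C as in the sample titles. The labels do not say that they came from separate cultures, so p-values measure the spread between these libraries, which may be technical. In RNA from whole cultures, fewer cells of a type and less RNA per cell cannot be told apart.

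The libraries held 20675311 to 22375875 expected counts each. Levels of a gene are given as scaled CPM (counts relative to the TMM-scaled library total), with the SD over 3 libraries, and levels of different genes are set against each other only as FPKM, which is per length. All 8 ES markers exceeded a mean of 1 CPM in ES cells, with a summed level of 4836 to 4940 CPM against 166 to 186 CPM in XEN cells, where Klf4 and Utf1 alone were above 1 CPM. All 8 XEN markers exceeded 1 CPM in XEN cells, with a summed level of 11151 to 11926 CPM against 9.59 to 10.2 CPM in ES cells. The 4 neural markers summed to 71.8 to 75.7 CPM in ES and 3.34 to 6.45 CPM in XEN libraries. Of them, only Sox1 and Tubb3 exceeded 1 CPM in ES cells, and only Tubb3 in XEN cells. The 6 trophoblast markers, of which Eomes alone exceeded 1 CPM, summed to 21.8 to 23.2 and 7.30 to 8.81 CPM. The fibroblast list summed to 2.86 to 3.43 CPM in ES and 0.447 to 0.606 CPM in XEN libraries, and the blood list to 1.48 to 1.71 and 0 to 0.0466 CPM. Whether the cultures held such cells, and their part in the results below, was not tested.

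The 49 genes took 0.525% ± 0.00401 of all counts in ES cells and 0.467% ± 0.00615 in XEN cells (SD, n = 3). These shares are of counts before TMM scaling, unlike the levels in scaled CPM. Each ES library had a TMM factor between 1.04 and 1.05, and each XEN library one between 0.951 and 0.960. Division by these factors lowers the ES share and raises the XEN share. Whether the shares differ after scaling was not tested. Of 48 tested genes, 17 rose in XEN cells, 21 fell and 10 did not pass an adjusted p of 0.05 in the edgeR quasi-likelihood test. Rises made up 35.4% of these genes, beside 42.0% of all 13581 genes tested, and falls made up 43.8%, beside 46.7% of all genes. The median log2 fold change of XEN over ES was -0.04, beside -0.07 over all genes. The median absolute log2 change was 0.43 in these genes and 0.92 over all genes, and 42 of 48 genes lay within 1 log2 unit of no change, beside 7183 of 13581. Only 5 of the 48 genes, 10.4%, passed a test against a change of 2-fold, of which Timm21 and Pam16 were higher in XEN cells and Timm8a2, Immp2l and Tomm34 were lower. Of all genes, 19.3% passed that test as higher in XEN cells and 23.4% as lower. Scaled CPM of the ES and XEN libraries did not overlap for 40 of the 48 genes, 83.3%, beside 89.4% of all genes tested.

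**Figure D1:**
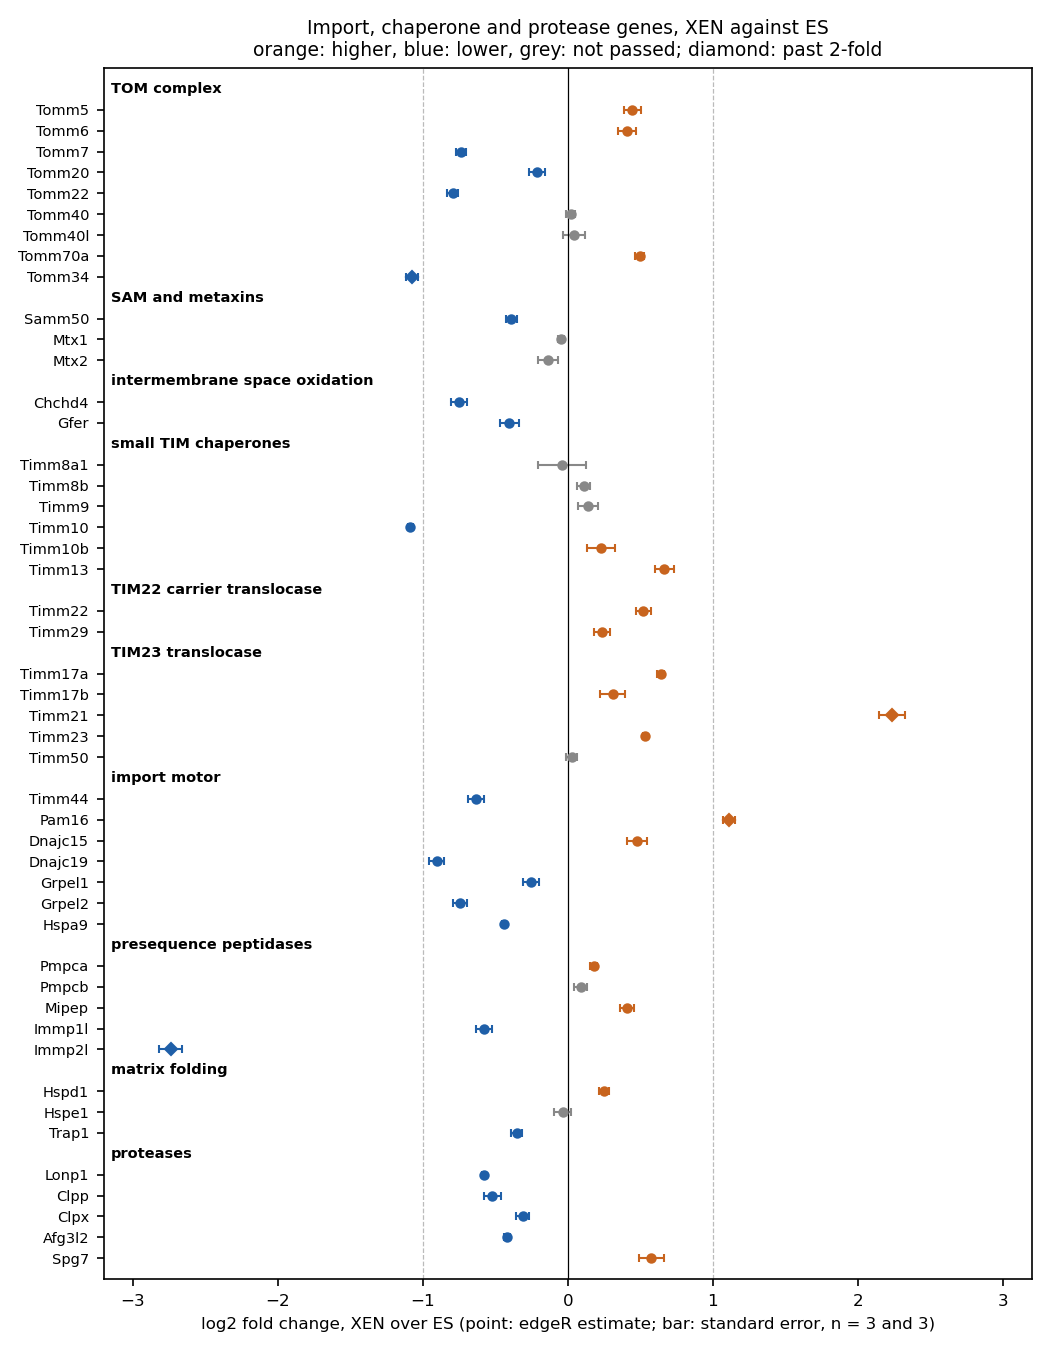
Log2 fold change of XEN over ES for 47 tested genes, in order of role; points are edgeR estimates, bars are standard errors (n = 3 libraries a group), and Timm8a2, at 0 in XEN cells, is left out. Most points lie within the dashed lines at 1 log2 unit; Immp2l and Timm21 lie farthest from 0, and the 7 motor genes lie on both sides of it.

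Per length, the chaperone genes Hspd1, Hspa9 and Hspe1 led the group in ES cells. Hspd1, the mitochondrial chaperonin Hsp60, had the highest FPKM in both cell types, 375 ± 2.72 in ES and 407 ± 15.5 in XEN cells. Hspa9, the matrix Hsp70 known as mortalin, came next in ES cells at 329 ± 4.11 FPKM, followed by the co-chaperonin Hspe1 at 246 ± 13.1 FPKM. In XEN cells the channel gene Timm23 stood at 233 ± 3.42 FPKM, Hspa9 at 222 ± 4.08 FPKM and Hspe1 at 221 ± 9.67 FPKM, and these last 2 did not differ beyond their spread. The lowest tested genes were Timm21 in ES cells, at 3.53 ± 0.391 FPKM, and, leaving aside Timm8a2, Immp2l in XEN cells, at 0.977 ± 0.0723 FPKM. Libraries of a group lay close together, with a median coefficient of variation of 3.84% over 48 genes in ES cells and 3.81% over 47 genes in XEN cells. Timm8a1 varied most, by 17.8% between ES libraries.

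**Figure D2:**
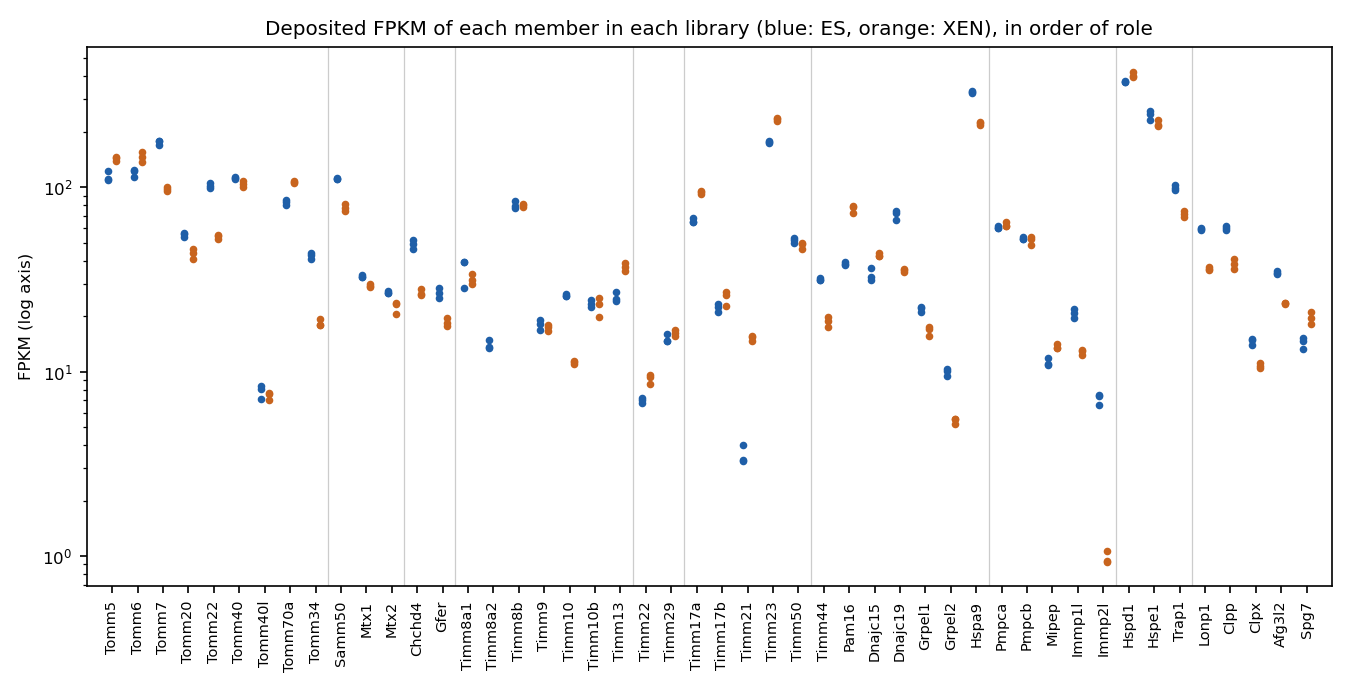
Deposited FPKM of 48 genes in each library on a log axis, in order of role (grey lines part the roles); blue points are ES and orange points XEN libraries, and values of 0 (Timm8a2 in XEN cells) are not drawn. Hspd1 stands at the top in both groups, followed by Hspa9 in ES and Timm23 in XEN cells, and Immp2l in XEN cells is the lowest point at 0.93.

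The TOM complex changed in opposite directions within itself. Its channel gene Tomm40 had 158, 160 and 156 scaled CPM in the ES libraries against 155, 166 and 160 in the XEN libraries, and did not pass the test (log2 fold change 0.02, adjusted p = 0.649); with upper-quartile factors it was called lower (-0.13, adjusted p = 0.00673). Of 9 tested genes of the complex and its helpers, 3 rose, 4 fell and 2 did not pass. Of all genes tested, 42.0% rose and 46.7% fell, the background for this count and for those of the other roles below. Among the receptors for presequence proteins, Tomm22 fell from 86.8, 89.4 and 92.8 scaled CPM in ES libraries A, B and C to 53.0, 51.7 and 50.3 in XEN libraries A, B and C (log2 fold change -0.79 ± 0.03, standard error, adjusted p = 3.83e-13). No XEN library came near the lowest ES library. Tomm20, its partner receptor, fell less, from 260, 250 and 264 to 209, 234 and 225 scaled CPM (log2 fold change -0.21 ± 0.05). That call was lost when an unnamed TOM20-like model, described with Hspe1 below, was added to Tomm20 (-0.09, adjusted p = 0.0514). Tomm70a, the receptor that takes carrier precursors from cytosolic chaperones, moved the other way, from 291, 280 and 302 to 406, 406 and 418 scaled CPM (0.49 ± 0.03, adjusted p = 1.31e-10), and its groups did not overlap.

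The small TOM subunits, which steady the channel, were split as well. Tomm7 fell from 54.9, 51.8 and 54.4 scaled CPM in ES to 31.4, 33.2 and 32.2 in XEN libraries (log2 fold change -0.73 ± 0.03), while Tomm5 rose from a mean of 60.1 ± 4.07 to 81.7 ± 1.65 (0.44 ± 0.06) and Tomm6 from 99.9 ± 4.56 to 132 ± 7.85 (0.41 ± 0.06). Per length, Tomm7 was the highest of these 3 genes in ES cells, at 176 ± 4.67 FPKM, and the lowest in XEN cells, at 97.8 ± 2.93 FPKM. Tomm40l, a paralog of the channel gene, had 21.2 ± 1.61 and 21.8 ± 1.02 scaled CPM and did not pass. Tomm34, a cytosolic co-chaperone that binds Hsp70 and Hsp90, was the TOM-named gene that passed the 2-fold test. It fell from 72.3, 78.4 and 75.9 scaled CPM in ES libraries to 35.1, 37.2 and 35.3 in XEN libraries, a drop of 52.5% (log2 fold change -1.07 ± 0.04). The adjusted p against 2-fold was 0.0489, and it was 0.155 without ES library B, 0.0642 without ES library C, 0.102 without XEN library A and 0.113 without XEN library C.

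Of 3 genes of the outer membrane assembly machinery, 1 fell and 2 did not pass. Samm50, the core of the sorting and assembly machinery that inserts beta-barrel proteins, fell from 167, 166 and 168 to 122, 133 and 127 scaled CPM (log2 fold change -0.39 ± 0.04). Mtx1 and Mtx2, the metaxins that go with it, did not pass, with 44.8 ± 0.700 and 43.2 ± 0.846 scaled CPM for Mtx1 and 29.7 ± 0.648 and 27.0 ± 2.03 for Mtx2, whose adjusted p was 0.051. Mtx2 was called lower in 9 of the 18 alternative settings, among them RLE factors (adjusted p = 0.0383) and limma-voom (0.0488), and Mtx1 in 3, with upper-quartile factors (-0.20, adjusted p = 0.000786), no factors and the FPKM scale. The disulfide relay of the intermembrane space, which oxidises and so traps small cysteine-rich proteins, fell in both its genes. Chchd4, the oxidoreductase MIA40, fell from 53.9, 50.6 and 56.3 to 31.3, 33.3 and 31.0 scaled CPM (-0.75 ± 0.06). Gfer, the oxidase that restores it, fell from 42.6, 40.1 and 45.8 to 31.1, 32.1 and 34.1 scaled CPM (-0.40 ± 0.07). In both genes every XEN library lay below every ES library. Of all genes tested, 89.4% had groups that did not overlap, in either direction.

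The small TIM proteins are substrates of that relay and chaperones of hydrophobic precursors in the intermembrane space. Of 7 genes, Timm13 and Timm10b rose, Timm8a2 and Timm10 fell, and Timm8a1, Timm8b and Timm9 did not pass. Timm8a2 had 11.9, 11.0 and 10.9 scaled CPM in ES libraries A, B and C, from 761 counts in all, and was at 0 counts in all 3 XEN libraries. Against a floor of 3 counts over the XEN group it was at least 236-fold lower. The coding sequences of Timm8a2 and its X-linked paralog Timm8a1 are shown because Timm8a1 had counts in all 6 libraries and Timm8a2 in ES libraries only; they come from GENCODE M21 on GRCm38, 5′ to 3′, and capitals mark the 4 cysteine codons of the twin CX3C motif by which small TIM proteins form their disulfides.
Timm8a1: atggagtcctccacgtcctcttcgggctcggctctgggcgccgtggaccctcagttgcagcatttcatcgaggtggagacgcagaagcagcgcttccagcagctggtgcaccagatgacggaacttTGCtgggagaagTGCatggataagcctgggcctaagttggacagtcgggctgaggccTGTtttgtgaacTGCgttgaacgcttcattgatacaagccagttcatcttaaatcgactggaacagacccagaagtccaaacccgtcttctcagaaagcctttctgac
Timm8a2: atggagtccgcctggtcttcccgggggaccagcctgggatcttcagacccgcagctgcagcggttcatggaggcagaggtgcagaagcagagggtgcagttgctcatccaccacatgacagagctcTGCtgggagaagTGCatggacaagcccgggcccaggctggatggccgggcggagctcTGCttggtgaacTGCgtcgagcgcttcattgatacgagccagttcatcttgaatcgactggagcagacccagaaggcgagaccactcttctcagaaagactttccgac
Both hold 291 bases, or 97 codons, with cysteine pairs that begin at codons 43 and 62, and 225 of the 291 positions are identical (77.3%). Timm8a1 shared 50.2% of aligned positions with Timm8b.

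Timm8a1 itself had 42.7, 30.8 and 42.8 scaled CPM in ES libraries and 40.5, 35.1 and 37.4 in XEN libraries, with groups that overlapped (adjusted p = 0.812). Without ES library B, its lowest ES library, Timm8a1 was called lower (log2 fold change -0.19, adjusted p = 0.0148). Its expected counts were not whole in any of the 6 libraries (tolerance 0.005), as RSEM gives where reads are shared between gene models. An unnamed gene model that the deposited tables describe as Tim8 A had 52.8, 56.4 and 53.1 scaled CPM in ES and 57.9, 60.4 and 59.5 in XEN libraries. Per length it stood at 50.9 ± 1.98 FPKM in ES and 51.1 ± 1.28 in XEN cells, above Timm8a1 at 35.6 ± 6.27 and 31.7 ± 2.15 FPKM. Added together, the models had 95.5, 87.3 and 95.9 scaled CPM in ES and 98.4, 95.6 and 96.9 in XEN libraries, and the sum did not pass (log2 fold change 0.06, adjusted p = 0.201). Timm8b, the other paralog, had 32.5 ± 1.69 and 35.1 ± 0.666 scaled CPM and did not pass (adjusted p = 0.0721).

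Timm9 and Timm10, the subunits of the hexamer that carries inner membrane precursors, did not move together. Timm10 fell from 14.3, 14.3 and 14.5 to 6.86, 6.62 and 6.80 scaled CPM (log2 fold change -1.09 ± 0.02), a drop of 52.9% that did not pass the 2-fold test (adjusted p = 0.143). Timm9 had 14.4, 13.5 and 12.4 in ES and 15.2, 15.0 and 14.1 scaled CPM in XEN libraries and did not pass. Per length, the ratio of Timm9 to Timm10 went from 0.694 ± 0.0515 to 1.54 ± 0.0588. Timm13, the partner of the Tim8 proteins, rose from 29.1, 26.0 and 26.7 to 41.2, 45.4 and 43.1 scaled CPM (0.67 ± 0.06), and Timm10b, which docks the hexamer at TIM22, rose from 12.3, 12.9 and 13.7 to 13.5, 15.7 and 16.5 (0.23 ± 0.10, adjusted p = 0.0214), with groups that overlapped. The Timm10b call was lost without ES library A, ES library B, XEN library B or XEN library C, with upper-quartile or no scaling factors and in the DESeq2 Wald test, and its direction turned on the FPKM scale (-0.04).

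The inner membrane translocases rose in XEN cells in 6 of 7 genes, and in 5 with other scalings that lost the call of Timm29; of all genes, 42.0% rose. Both tested genes of the TIM22 complex, which inserts carrier proteins, rose: Timm22 from 17.7, 18.4 and 18.7 to 26.7, 27.2 and 24.6 scaled CPM (log2 fold change 0.52 ± 0.05) and Timm29, a subunit found in animals, from 44.3 ± 2.52 to 52.1 ± 2.05 (0.23 ± 0.06; with upper-quartile factors 0.09, adjusted p = 0.109). Of 5 genes of TIM23, the presequence translocase, 4 rose and none fell. Its channel gene Timm23 rose from 178, 176 and 181 to 260, 260 and 254 scaled CPM (0.53 ± 0.02, adjusted p = 1.58e-11). The paralogs Timm17a and Timm17b, which line the same translocase, rose from 51.0 ± 1.38 to 79.5 ± 1.38 (0.64 ± 0.03) and from 34.0 ± 1.77 to 42.1 ± 3.77 (0.31 ± 0.09). The receptor gene Timm50 had 53.1 ± 1.30 and 54.1 ± 2.06 scaled CPM and did not pass; with upper-quartile factors it was called lower (-0.12, adjusted p = 0.0242).

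Timm21, which links TIM23 to TOM and to the assembly of respiratory chain complexes, had the largest rise of the 49 genes. It went from 4.61, 3.79 and 3.87 scaled CPM in ES to 18.7, 19.6 and 19.4 in XEN libraries, 4.70-fold (log2 fold change 2.23 ± 0.09, adjusted p = 5.64e-15, and 2.58e-11 against 2-fold). All 3 XEN libraries were above the highest ES library. In RefSeq, Timm21 overlaps Fbxo15, an F-box gene known for its expression in ES cells. Fbxo15 fell from 299, 300 and 308 to 43.0, 50.3 and 54.8 scaled CPM (-2.62), the opposite direction. The strand used in counting is not given in the sources used here, so reads of overlapping genes cannot be told apart.

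**Figure D3:**
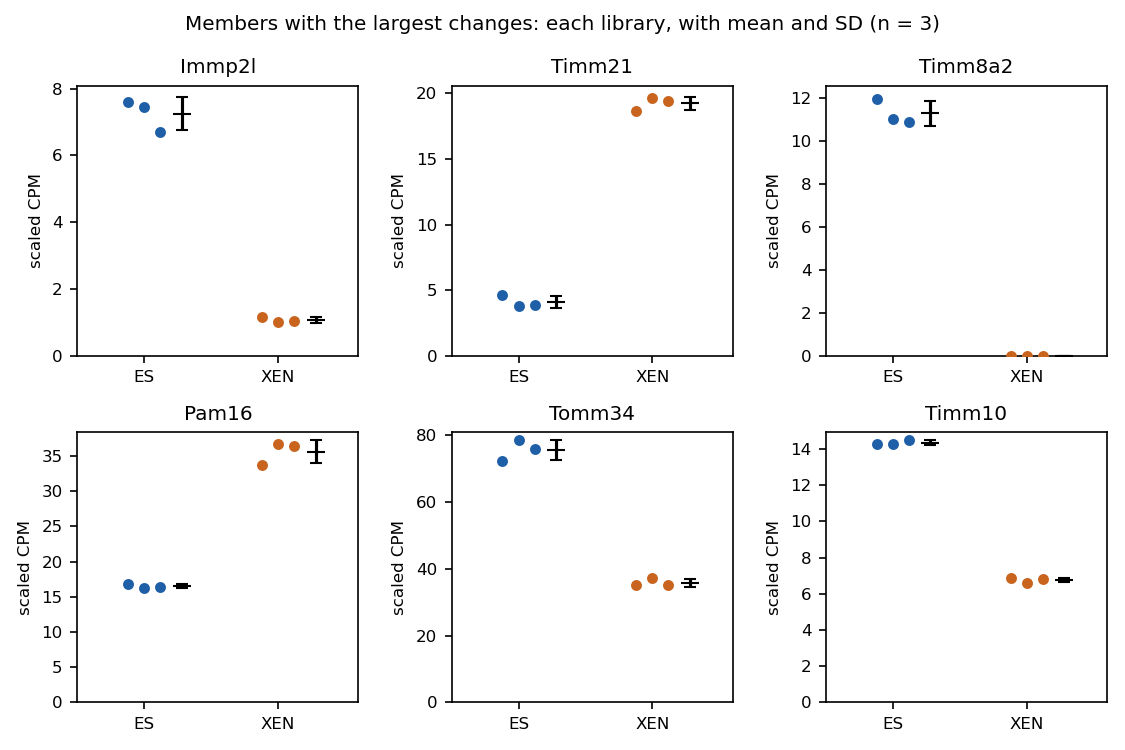
Scaled CPM in each library for the 5 genes past 2-fold and Timm10, on linear axes that start at 0; points are libraries A, B and C from left to right, and the black mark and bar beside them are the mean and SD (n = 3). No gene's groups overlap, which held for 89.4% of all genes tested, and Timm8a2 is at 0 in all 3 XEN libraries.

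The import motor, which pulls presequence proteins through TIM23, fell in 5 of 7 genes and rose in 2. Of all genes tested, 46.7% fell and 42.0% rose. Hspa9, the ATPase of the motor, fell from 927, 945 and 926 to 677, 696 and 689 scaled CPM (log2 fold change -0.44 ± 0.02). Timm44, which tethers it to the channel, fell from 50.7, 51.0 and 52.4 to 31.0, 33.0 and 35.3 scaled CPM (-0.63 ± 0.06). The nucleotide exchange factors Grpel1 and Grpel2, which reset Hspa9, fell from 67.7 ± 2.29 to 56.8 ± 3.15 (-0.25 ± 0.05) and from 37.7 ± 1.70 to 22.5 ± 0.798 (-0.75 ± 0.05). In all 4 genes the XEN libraries lay below the ES libraries, beside 89.4% of all genes with groups that did not overlap in either direction.

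RNA levels in the J-domain part of the motor moved in both directions. Dnajc19, a J-protein that stimulates Hspa9, fell from 42.5, 38.2 and 42.4 to 21.7, 21.8 and 22.2 scaled CPM (log2 fold change -0.90 ± 0.05), while its paralog Dnajc15 rose from 17.7, 17.0 and 19.7 to 25.0, 26.0 and 24.8 (0.48 ± 0.07). Per length, Dnajc15 stood at 0.470 ± 0.0218 of Dnajc19 in ES cells and at 1.21 ± 0.0402 in XEN cells, so that the order of these paralogs was exchanged. Pam16, the J-like partner that holds the J-protein in place, rose from 16.8, 16.3 and 16.4 to 33.7, 36.7 and 36.4 scaled CPM (1.11 ± 0.04). It had an adjusted p of 0.0334 against 2-fold, which became 0.0780 without ES library B, 0.0703 without ES library C, 0.0865 without XEN library B and 0.0700 without XEN library C. Glis2, which overlaps Pam16, had 35.1 to 37.9 scaled CPM in the ES libraries, and in the XEN libraries 42.6 to 48.5. It was called higher in XEN cells (log2 fold change 0.32, adjusted p = 2.33e-05), the same direction as Pam16. Expected counts of Pam16 were whole in all 6 libraries, and the part of Glis2 reads in them was not tested.

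The peptidases that trim imported proteins held the largest measured fall after Timm8a2. Immp2l, a catalytic subunit of the inner membrane peptidase, fell from 7.61, 7.45 and 6.69 to 1.18, 1.03 and 1.04 scaled CPM, by 85.0% (log2 fold change -2.74 ± 0.08, adjusted p = 8.68e-13). This rests on 490 counts in ES and 68 in XEN libraries. Immp1l, the other catalytic subunit, fell less, from 17.8, 15.9 and 17.0 to 11.5, 11.6 and 10.9 scaled CPM (-0.58 ± 0.05), and the ratio of Immp1l to Immp2l per length went from 2.91 ± 0.252 to 13.1 ± 0.952. Lrrn3, a gene within Immp2l, had 7 counts in ES and 1 in XEN libraries. Of the matrix processing peptidase, which removes presequences, Pmpca, its substrate-binding subunit, rose from 175 ± 2.30 to 198 ± 4.93 scaled CPM (0.18 ± 0.02; with upper-quartile factors 0.03, adjusted p = 0.450, and the call was lost) and Pmpcb, its catalytic subunit, had 75.3 ± 1.33 and 80.1 ± 3.96 and did not pass. Mipep, which removes a further octapeptide, rose from 24.2, 24.3 and 26.5 to 32.9, 32.4 and 34.1 (0.41 ± 0.05).

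Of the genes for folding in the matrix, Hspd1 rose from 809, 801 and 801 to 1001, 942 and 928 scaled CPM (log2 fold change 0.25 ± 0.03), Trap1, the mitochondrial Hsp90, fell from 208, 217 and 203 to 158, 169 and 165 (-0.35 ± 0.04), and Hspe1 did not pass. Hspe1, the lid of the Hspd1 barrel, had 163, 151 and 169 scaled CPM in ES and 155, 165 and 152 in XEN libraries, which overlapped; with upper-quartile factors it was called lower (-0.18, adjusted p = 0.00111). An unnamed model described as CPN10-like, with 93 ES counts and 886 XEN counts in all, rose from 1.61, 1.22 and 1.30 to 12.4, 14.6 and 15.3 scaled CPM (3.35 ± 0.15). Per length it stood at 3.27 ± 0.476 FPKM in ES and 31.0 ± 3.42 in XEN cells, below Hspe1 in both, and the sum of the counts of both models did not pass (log2 fold change 0.08, adjusted p = 0.115). A model described as TOM20-like stood at 94.1 ± 5.15 FPKM in ES and 100.3 ± 4.44 in XEN cells, above Tomm20 at 55.2 ± 1.54 and 43.6 ± 2.66 FPKM. The sum of their counts had a log2 fold change of -0.09 and an adjusted p of 0.0514. The fall called for Tomm20 alone was thus not called for the sum. Expected counts were not whole in 6 libraries for Tomm20 and in 5 for Hspe1. Where reads are shared between models, the order of the models can depend on how RSEM divided them. The other 3 unnamed models that share an orthology term with one of the genes had 10 counts or fewer over a group.

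**Figure D4:**
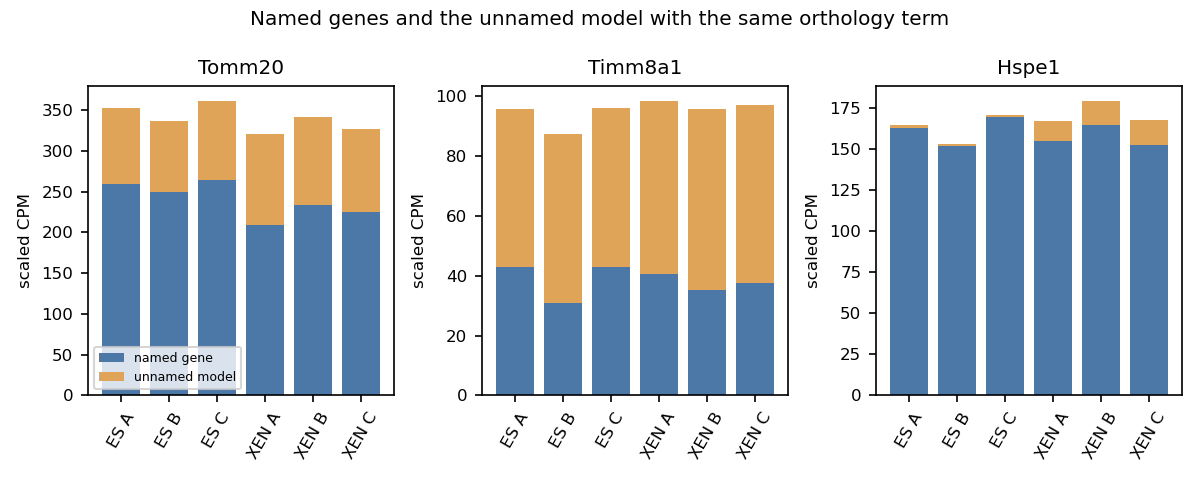
Scaled CPM of Tomm20, Timm8a1 and Hspe1 (blue) in each library, with the unnamed gene model of the same orthology term stacked on top (yellow); axes start at 0. Heights are not per length and do not rank the models against each other; the sums for Timm8a1 run from 87.3 to 98.4, and the CPN10-like model is visible mainly in XEN libraries.

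The ATP-dependent proteases fell in 4 of 5 genes, beside 46.7% of all genes tested. Lonp1, the Lon protease of the matrix, fell from 164, 162 and 162 to 108, 111 and 109 scaled CPM (log2 fold change -0.58 ± 0.01, adjusted p = 7.58e-12). Clpp, the peptidase of the ClpXP protease, fell from 63.3, 61.4 and 65.5 to 41.4, 46.9 and 44.4 (-0.52 ± 0.06), and Clpx, its unfoldase, from 38.8 ± 1.62 to 31.3 ± 0.935 (-0.31 ± 0.04). Afg3l2 and Spg7 together form the m-AAA protease of the inner membrane, and they parted: Afg3l2 fell from 96.9, 97.1 and 100.3 to 74.0, 73.3 and 72.6 scaled CPM (-0.42 ± 0.02), and Spg7 rose from 34.2, 35.6 and 31.2 to 46.4, 49.8 and 54.3 (0.58 ± 0.09). Per length, Afg3l2 stood at 2.41 ± 0.211 times Spg7 in ES cells and 1.21 ± 0.105 times in XEN cells.

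The balance of 14 pairs of partners or paralogs was followed as the log2 ratio of scaled CPM with 1 CPM added to each gene. In 11 pairs the ratios of ES and XEN libraries did not overlap, each with p = 0.1 in a two-sided exact permutation test. That is the smallest p that 20 arrangements of 3 against 3 libraries allow, so that no pair could reach 0.05. Adjusted over the 14 pairs, this p was 0.127. Among single genes, 89.4% of all tested had groups that did not overlap. The share over other pairs of genes was not determined. The ratio of Immp1l to Immp2l changed by 1.45 ± 0.07 log2 units, a size that depends on the added value since Immp2l was near 1 CPM in XEN cells (2.06 with 0.1 CPM and 0.59 with 5 CPM added). Next came Dnajc15 to Dnajc19 (1.33 ± 0.05), Timm9 to Timm10 (1.11 ± 0.07) and Afg3l2 to Spg7 (-0.98 ± 0.10). Smaller shifts were those of Timm8a1 to Timm13 (-0.67 ± 0.16), Tomm20 to Tomm22 (0.57 ± 0.07), Grpel1 to Grpel2 (0.47 ± 0.07), Timm17a to Timm17b (0.33 ± 0.09), Hspd1 to Hspe1 (0.29 ± 0.07), Clpp to Clpx (-0.21 ± 0.08) and Pmpca to Pmpcb (0.09 ± 0.03). The groups overlapped for Tomm40 to Tomm40l (exact p = 0.9), Timm8a1 to Timm8b (exact p = 0.4) and Mtx1 to Mtx2 (exact p = 0.4). All ratios use the named genes alone. With their unnamed models added, log2 fold changes were 0.08 for Hspe1, -0.09 for Tomm20 and 0.06 for Timm8a1. Without the models they were -0.04, -0.21 and -0.04. Ratios of the pairs with these 3 genes can therefore depend on how reads were divided, and were not determined for the sums.

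**Figure D5:**
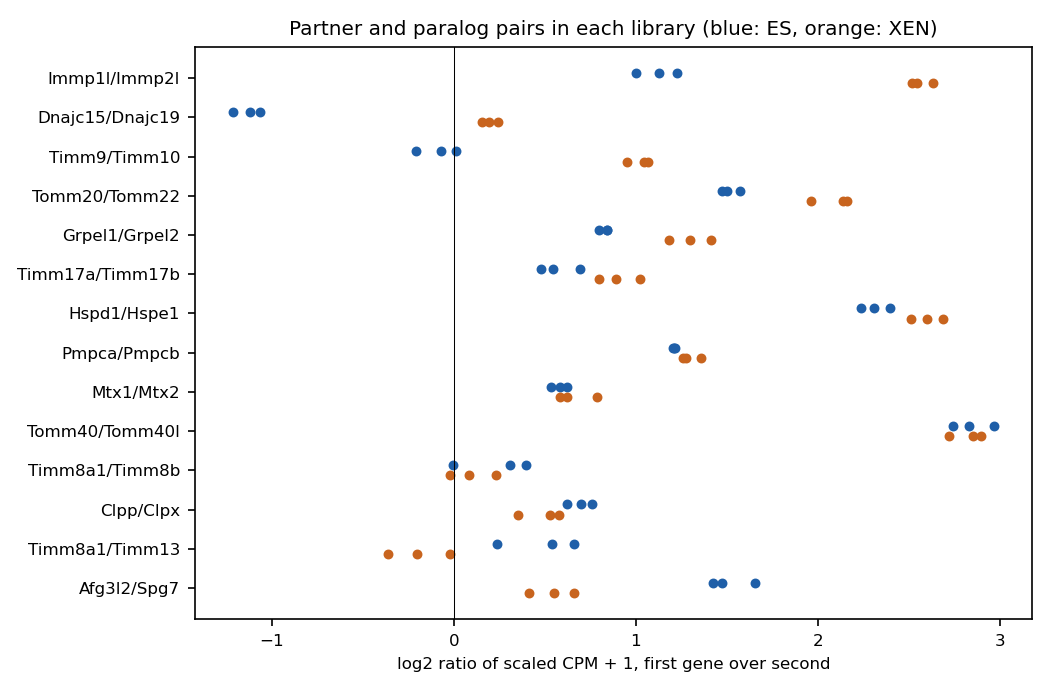
Log2 ratio of the first gene over the second, on scaled CPM with 1 CPM added, in each library (blue ES, orange XEN), with pairs in order of their change. The orange points lie to the right of the blue ones for Immp1l/Immp2l, Dnajc15/Dnajc19 and Timm9/Timm10, and to the left for Afg3l2/Spg7.

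Promoter windows from RefSeq on GRCm38.p6, 250 bases before to 50 after a start, matched 43 of the 49 genes with 46 windows. Windows are shown for Hspe1, whose window overlaps by 285 bases that of Hspd1 on the opposite strand, and for the genes that fell most, with the motif matches found in capitals.
Hspe1, chr1:55087898-55088197, plus strand: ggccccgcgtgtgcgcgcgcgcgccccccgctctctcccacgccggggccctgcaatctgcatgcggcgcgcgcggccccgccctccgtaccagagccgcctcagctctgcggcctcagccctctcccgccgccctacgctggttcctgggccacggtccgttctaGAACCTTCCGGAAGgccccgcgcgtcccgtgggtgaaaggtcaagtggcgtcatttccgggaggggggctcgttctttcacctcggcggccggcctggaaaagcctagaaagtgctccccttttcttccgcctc
Timm8a2, chr14:122034424-122034723, plus strand: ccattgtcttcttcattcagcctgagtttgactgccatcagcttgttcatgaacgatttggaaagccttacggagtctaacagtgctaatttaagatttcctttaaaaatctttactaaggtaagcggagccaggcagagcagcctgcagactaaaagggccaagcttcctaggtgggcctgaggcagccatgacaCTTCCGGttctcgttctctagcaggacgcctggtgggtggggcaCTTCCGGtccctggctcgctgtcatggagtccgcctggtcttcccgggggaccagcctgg
Immp2l, chr12:41023840-41024139, plus strand: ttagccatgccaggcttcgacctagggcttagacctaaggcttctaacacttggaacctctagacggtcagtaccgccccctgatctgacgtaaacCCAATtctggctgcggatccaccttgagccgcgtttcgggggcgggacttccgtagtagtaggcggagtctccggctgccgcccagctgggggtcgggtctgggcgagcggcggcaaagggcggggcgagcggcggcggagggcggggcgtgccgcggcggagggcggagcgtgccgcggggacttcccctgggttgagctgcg
Timm10, chr2:84826771-84827070, plus strand: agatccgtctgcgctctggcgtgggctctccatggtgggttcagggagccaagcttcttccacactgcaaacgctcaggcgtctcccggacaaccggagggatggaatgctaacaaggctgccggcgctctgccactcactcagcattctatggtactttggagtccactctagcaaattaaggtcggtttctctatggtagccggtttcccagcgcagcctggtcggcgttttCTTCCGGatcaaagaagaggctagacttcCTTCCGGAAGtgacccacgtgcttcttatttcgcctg
The capitals in Hspe1 hold a heat shock element spelled GAANNTTC and 2 matches of the ETS motif CCGGAAG, 1 on each strand, all overlapping. Those in Timm8a2 are 2 ETS matches, those in Timm10 are 3, and the one in Immp2l is a CCAAT box. Of the genes that share the Hspe1 window, Hspd1 rose and Hspe1 did not pass, as given above.

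Each motif was searched as exact letters on both strands. CCGGAAG was in 18 of the 46 windows (39.1%) and in 8.86% of 32851 windows of all genes. It was in 6 of 18 windows of genes that rose and in 7 of 18 windows of genes that fell. Windows that share bases, as do those of Tomm34 and those of Hspd1 and Hspe1, can hold the same match and count it again. This holds for each motif searched. The windows of the 46 were also richer in CpG, with a median of 21 sites against 7 over all windows, and the part of this in the motif share was not tested. The NRF1 motif GCATGCGC was in 3 windows (6.52%, beside 2.71% of all), those of Clpx, Grpel1 and Timm13, and the YY1 motif AAGATGGCG in 3 (6.52%, beside 1.40%), those of Immp1l, Mtx1 and Timm50. GAANNTTC was in 3 windows (6.52%, beside 7.86%), those of Hspd1, Hspe1 and Timm9, CCAAT in 15 (32.6%, beside 37.4%) and TATAAA in 3 (6.52%, beside 13.6%). The CHOP element TGATGCAA, a motif linked to the mitochondrial unfolded protein response, was in 0 of the 46 windows and in 0.895% of all.

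The 5 lists held 66 other genes of the pathway, all tested, of which 23 rose, 32 fell and 11 did not pass, with a median log2 fold change of -0.12 beside -0.07 over all genes; 15 of them passed the 2-fold test. Rises made up 34.8% and falls 48.5% of the lists, beside 42.0% and 46.7% of all genes, and 22.7% passed 2-fold, beside 42.7% of all genes. These shares of all genes are the background for the 5 lists below. Of 15 further protease and quality control genes, 5 rose and 8 fell (median -0.18). Lactb, a serine protease-like protein of the intermembrane space, rose from 6.07 ± 0.596 to 18.9 ± 0.877 scaled CPM (1.64), Afg1l, an AAA protein, fell from 23.0 ± 1.65 to 8.29 ± 0.563 (-1.47), and the prohibitin Phb2, which had the highest FPKM of the list, rose by 0.14 log2 units. Of 14 genes for cristae organisation and outer membrane insertion, 5 rose and 5 fell (median -0.0038). Chchd6, a cristae organising subunit, rose from 8.01 ± 0.822 to 18.6 ± 1.96 scaled CPM (1.22), and the channel Vdac1 fell from 736 ± 13.7 to 391 ± 6.95 (-0.91). Mtx3, a metaxin, had 837 ES counts and 1 XEN count, a ratio of 778 with a 95% Clopper-Pearson interval of 139 to 30763 that covers counting error only.

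Of 12 other import and folding helpers, 6 rose and 5 fell (median 0.03). Glrx5, a glutaredoxin of iron-sulfur cluster transfer, rose from 25.7 ± 2.42 to 80.6 ± 4.56 scaled CPM (1.65), and Hscb, the J-protein of cluster assembly, fell from 18.8 ± 0.954 to 7.44 ± 0.800 (-1.33). Of 13 cytosolic chaperone genes that hand on precursors, 5 rose and 6 fell (median -0.04). Ubqln2, a ubiquilin, rose from 95.7 ± 3.97 to 582 ± 9.60 scaled CPM (2.60). The cytosolic Hsp90 genes, whose products deliver precursors to Tomm70, fell: Hsp90aa1 from 6552 ± 74.2 to 1880 ± 103 (-1.80) and Hsp90ab1 from 7041 ± 102 to 5131 ± 57.0 (-0.46). Of 12 regulators of mitochondrial stress and biogenesis, 2 rose and 8 fell (median -0.28). Atf5, a transcription factor of the mitochondrial unfolded protein response, fell from 118 ± 3.81 to 18.7 ± 0.791 scaled CPM (-2.66 ± 0.04), and Myc rose from 6.62 ± 0.669 to 65.9 ± 3.87 (3.31). Atf4 had 323, 316 and 333 scaled CPM in ES and 212, 273 and 329 in XEN libraries, which overlapped, and did not pass (adjusted p = 0.240).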

How the data were processed

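The data were 6 gene tables, 1 per library, grouped and lettered by sample title. The authors' build was mm9 and their tools Bowtie2, RSEM and DESeq2, per the submitters' processing notes, without versions or order. The deposited tables give expected counts per gene, the authors' FPKM values and gene lengths, and genes that a table does not list were set to 0 counts. The deposited tables also hold 957 unnamed gene models.

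Expected counts were rounded to whole numbers, kept by filterByExpr (13581 genes), scaled by TMM and tested by the edgeR 4.0.16 quasi-likelihood F test (R 4.3.3) with group as the only term. P-values were adjusted by Benjamini-Hochberg over all tested genes and called at 0.05. For changes past 2-fold, glmTreat was run on that fit, whose common biological coefficient of variation came to 4.75%. Errors of CPM and FPKM are SDs, and log2 fold changes have a standard error computed from log2 CPM (prior count 2) in each group. Scaling factors ran from 0.951 to 1.05. In a single library 3 counts were 0.134 to 0.145 CPM; the bound for a group at 0 uses 3 counts over the group. Intervals and bounds cover counting error only.

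Every gene chosen by symbol is named; of each list of other pathway genes, the largest called rise, the largest called fall and the gene with the highest FPKM are named. The genes, lists, pairs and motifs were chosen with earlier results of these data known. Positions are of GRCm38, a build other than that of the tables, and were used for sequences only; which genes overlap came from RefSeq by name. Non-whole counts were found for 10 of the 49 genes, and 4 had a transcript added by the authors. Apart from Timm21, Pam16 and Immp2l, listed genes overlapped Dnajc19 (Fxr1), Grpel1 (Tada2b), Pmpca (Inpp5e), Timm13 (Tmprss9), Timm29 (Yipf2) and Timm8b (Nkapd1). Others overlapped Tomm40l (Nr1i3 and Apoa2), Tomm6 (Usp49 and Frs3) and Trap1 (Dnase1). Hspd1 overlapped Hspe1, and Timm9 overlapped Tomm20l. The part of reads from overlapping genes was not tested. Alternatives were other scalings and filters, a replicate block, leaving out each library, DESeq2 1.42.0, limma-voom and limma-trend on log2(FPKM + 1) (limma 3.58.1), other pseudocounts for pairs (0.1 and 5 CPM, and FPKM), and other treatments of unnamed models; adding them to Tomm20 and Timm8a1 was chosen after seeing the data.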

Additional observations from a re-analysis of the deposited data

How the results depend on the processing

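Of the 48 tested genes, 34 kept their direction and their side of the threshold in all 18 alternative settings, and 14 changed in at least 1. Other scalings shifted the median log2 fold change of all genes by -0.147 (upper-quartile factors), -0.133 (no composition factors) and -0.121 (log2(FPKM + 1)), and each gave 14 rises and 26 falls among these genes. The median log2 fold change of the genes, -0.04, became -0.185, -0.171 and -0.152 in these 3 settings and 0.0232 with unnamed models also added to Tomm20 and Timm8a1; it ran from -0.0608 to -0.00345 when each library was left out. The number past 2-fold ran from 3 to 5 when each library was left out, where Tomm34, Pam16 or both lost that call. With upper-quartile and with no factors, Pam16 lost it too (adjusted p = 0.882 and 0.753) and Timm10 gained it (0.00522 and 0.00730).

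Genes that turned direction had a log2 fold change of 0.23 or less in size in the reported fit. With upper-quartile factors they were Tomm40 (-0.127), Tomm40l (-0.105), Timm8b (-0.0365), Timm9 (-0.0105), Timm50 (-0.120) and Pmpcb (-0.0576). With no composition factors they were Tomm40 (-0.114), Tomm40l (-0.0911), Timm8b (-0.0231), Timm50 (-0.106) and Pmpcb (-0.0443). With log2(FPKM + 1) they were Tomm40 (-0.106), Tomm40l (-0.0734), Timm8b (-0.00269), Timm9 (-0.0496), Timm50 (-0.0969), Pmpcb (-0.0386) and the called Timm10b (-0.0426). When each library was left out, Tomm40 ran from -0.00553 to 0.0456, Tomm40l from -0.0171 to 0.0819, Timm8a1 from -0.185 to 0.0342 and Timm50 from -0.000448 to 0.0589. Adding unnamed models turned Hspe1 (0.0763 in both settings) and Timm8a1 (0.0617). With upper-quartile factors, no factors and log2(FPKM + 1), Timm29 and Pmpca lost their calls, and Tomm40, Timm50, Mtx1, Mtx2 and Hspe1 were called as falls, with adjusted p from 0.000486 to 0.0441. Without ES library B, Timm8a1 became a fall. The cause of these changes was not tested.

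With the replicate letter as a replicate block, 17 genes rose, 21 fell and 5 passed 2-fold, the same counts as without it, and the median was -0.0336. Same-letter libraries deviated together with correlations of 0.0327, 0.00761 and 0.0199 across genes, and each correlated best with its own letter, a hint from the data only, so the letters were not taken to pair the libraries. Tomm20l, at 1 count, did not pass filterByExpr and was not tested in the reported fit.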
